A study of Mus musculus with 48 samples.

Results

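The proteasome genes described here are those whose symbol begins with *Psma*, *Psmb*, *Psmc* or *Psmd* followed by a number, without the interferon-inducible *Psmb8*, *Psmb9* and *Psmb10*. The rule found 36 genes of the 16952 present in both expression tables, and the rule uses gene symbols and no measured value. They are 8 genes of the alpha ring, 8 of the beta ring, the 6 ATPases of the base and 14 further *Psmd* genes of the 19S regulatory particle. RNA of the mouse cerebral cortex was sequenced from 48 mice in 12 groups of 4 animals, each group being 1 sex, 1 genotype and 1 exposure. One table held 16 wild-type C57BL/6J mice (B6), 4 months old, that inhaled filtered air or nPM, the nano-sized fraction of urban freeway particulate matter, for 8 weeks. The other held 32 *APOE*-TR mice, 6 months old and exposed for 15 weeks, in which targeted replacement put human *APOE3* or human *APOE4* in place of the mouse gene, in both exposure groups alike. All mice breathed filtered air or nPM for 5 h a day on 3 days a week. Table, genotype, age, exposure length and the nPM batch, which the paper says differed, change together between B6 and *APOE*-TR mice. They cannot be told apart, so no level was tested between them.

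The proteasome is the protease that degrades proteins tagged with ubiquitin. Its 20S core is a barrel of stacked alpha and beta rings, in which *Psmb6*, *Psmb5* and *Psmb7* encode the subunits with caspase-like, chymotrypsin-like and trypsin-like activity, and the 19S particle on its ends recognises, unfolds and feeds in the substrate. NFE2L1, a transcription factor that is itself cleared by the proteasome, raises transcription of the subunit genes together when proteasome activity drops, and neurons depend on the complex for turnover of synaptic and misfolded proteins. Not every gene that the symbol rule finds is a constitutive subunit. *Psma8* encodes an alpha subunit of the testis and *Psmb11* the beta subunit of thymic epithelium, while *Psmd5*, *Psmd9* and *Psmd10* encode chaperones that help assemble the base and leave it again.

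Values are CPM, read counts divided by the library's read total and put on a common scale, and differences are on the scale log2(CPM + 0.5) after rescaling of the libraries. The listed genes of an *APOE*-TR library held 17832200 to 31264900 reads, which is less than the library's read total, and the lowest value listed in a library was 0.0220 to 0.0481 CPM. In the B6 table that lowest value ran from 0.0258 to 0.254 CPM, so that low B6 values are less precise. *Xist* and *Ddx3y* matched the labelled sex in all mice, and mouse *Apoe* was 8.81 to 30.7 CPM in *APOE*-TR against 164 to 503 CPM in B6 mice. These values do not tell which human allele a mouse carries. Summed neuronal markers (7 genes) were 4227 to 6674 CPM in *APOE*-TR and 1619 to 6338 CPM in B6 libraries. Choroid plexus markers ranged from 9.28 to 1493 CPM in *APOE*-TR libraries, so the level of markers of neighbouring tissue differed widely between libraries. Before the results, 4 libraries have to be named because they stand apart in how level relates to transcript length (below −0.2 on the slope explained further on). They are the *APOE3* female controls 61 and F6, the *APOE3* female nPM mouse 55 and the B6 male control 0, and the medians of comparisons that hold them are given with and without them.

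The promoters of *Psmb5*, *Psmb6* and *Psmd9* are shown because they hold, within 150 bases before the transcription start, the stricter form of the antioxidant response element, TGACNNNGC, the kind of element through which NFE2L1 and its relative NRF2 act. The sequences are RefSeq's for GRCm38.p6, each from 250 bases before to 50 after the start, written 5′ to 3′ on the gene's strand, with the matching letters in capitals. They lie at chr14:54617946-54618245 (minus strand), chr11:70525107-70525406 (plus) and chr5:123227940-123228239 (plus).
Psmb5: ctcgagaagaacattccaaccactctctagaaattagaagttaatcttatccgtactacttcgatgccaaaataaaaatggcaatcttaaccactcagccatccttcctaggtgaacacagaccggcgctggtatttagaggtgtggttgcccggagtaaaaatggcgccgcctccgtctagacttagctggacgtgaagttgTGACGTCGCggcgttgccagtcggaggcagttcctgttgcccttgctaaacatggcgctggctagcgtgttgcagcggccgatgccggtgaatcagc
Psmb6: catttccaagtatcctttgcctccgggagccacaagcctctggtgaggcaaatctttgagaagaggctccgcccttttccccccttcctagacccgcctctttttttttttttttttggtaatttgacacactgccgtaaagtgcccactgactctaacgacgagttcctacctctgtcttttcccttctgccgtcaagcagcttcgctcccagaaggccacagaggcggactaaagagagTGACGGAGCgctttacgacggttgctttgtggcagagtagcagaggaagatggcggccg
Psmd9: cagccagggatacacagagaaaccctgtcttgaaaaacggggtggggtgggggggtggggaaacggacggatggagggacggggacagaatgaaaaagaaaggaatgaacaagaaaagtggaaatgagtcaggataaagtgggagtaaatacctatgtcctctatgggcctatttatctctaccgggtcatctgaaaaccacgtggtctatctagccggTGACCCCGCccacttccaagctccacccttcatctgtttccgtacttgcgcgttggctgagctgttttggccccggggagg

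The element begins 47 bases before the start in *Psmb5*, 9 in *Psmb6* and 31 in *Psmd9*. Promoter sequence was found for 29 of the 36 genes, and on either strand 5 of them (17.2%) held TGACNNNGC, *Psmc6* and *Psmd12* being the others, against 14% of all 27025 genes with a promoter. The looser TGANNNNGC, which includes every match of the first, was in 17 (58.6%, against 45.0% of all). The GC box GGGCGG, bound by SP1, was in 18 (62.1% against 38.2%) and the CCAAT box in 12 (41.4% against 41.1%). Counted over the 150 bases before the start alone, the shares for TGACNNNGC were 10.3% and 7.74%, and those for GGGCGG 48.3% and 31.3%. A match gives letters in a window and says nothing of whether a factor was bound in these animals.

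Per kilobase of exon the catalytic genes *Psmb6*, at 57.5 CPM per kb, and *Psmb5*, at 54.2, were highest in *APOE*-TR cortex, followed by the ATPase gene *Psmc5* at 54.1. *Psmb7*, the third catalytic gene, had 40.2 CPM per kb. The lowest were *Psmb11* at 0.0519 and *Psma8* at 0.124 CPM per kb, with 1 to 15 and 1 to 11 reads per library, so both were barely detected in cortex. Among the other 34 genes the level per kb ran from 4.4 for *Psmd11*, a lid subunit that ties the 19S particle to the core, through a median of 25.0. The beta ring had the highest median, 36.1 CPM per kb, against 29.9 for the ATPases, 21.5 for the alpha ring and 21.7 for the other 19S genes. The chaperone genes *Psmd5*, *Psmd9* and *Psmd10* had mean levels of 26.2, 14.1 and 9.81 CPM, not divided by length. The 36 genes had short transcripts, with a median of 1642 exonic bases (766 to 4397) against 3010 for the genes of the *APOE*-TR table.

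In the B6 table *Psmb2* at 42.5 and the lid gene *Psmd7* at 36.9 CPM per kb were the highest per length, and *Psmb11* (0.0442), *Psma8* (0.170) and the alpha-ring gene *Psma5* (0.463) the lowest. *Psma5* stood at the lowest value of the library in 3 of 16 B6 mice and the beta-ring gene *Psmb3* in 2. Medians were 23.2 CPM per kb for the ATPases, 11.3 for the beta ring, 10.5 for the other 19S genes and 5.35 for the alpha ring. The B6 table also lists the pseudogenes *Psmb5-ps*, *Psmb6-ps*, *Psmb6-ps2* and *Psmb7-ps2*, with group means between 1.39 and 26.4 CPM, whereas the *APOE*-TR table lists none of them. The alignment kept reads that map to 1 place, so reads that fit a gene and its copy alike may be missing, and the B6 levels of *Psmb5*, *Psmb6* and *Psmb7* are uncertain. A test over all 48 mice was possible for 32 of the 36 genes, since *Psma5*, *Psma8*, *Psmb3* and *Psmb11* were at the floor of some library. It was possible for 33 within each B6 sex and for all 36 in *APOE*-TR mice.

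Across the 12 groups the sum of the 36 genes was set apart in 1 group, the *APOE3* female controls. Their 4 libraries summed to 1507, 2713, 1599 and 2267 CPM (mean 2021 ± 572, SD, n = 4). The *APOE3* nPM females summed to 1821, 1273, 1292 and 1489 CPM (1469 ± 254). All other *APOE*-TR groups had means between 1282 ± 36 (*APOE3* nPM males) and 1369 ± 95.2 (*APOE4* control females), and all 3 remaining *APOE3* nPM females apart from mouse 55 lay at or under 1489. Thus the 4 *APOE3* control females were above every other *APOE*-TR library except mouse 55, which overlapped them. B6 means were 801 ± 19.9 and 790 ± 24.1 in control and nPM females, and 873 ± 105 and 855 ± 86.7 in control and nPM males, with all B6 groups overlapping between exposures.

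**Figure D1:**
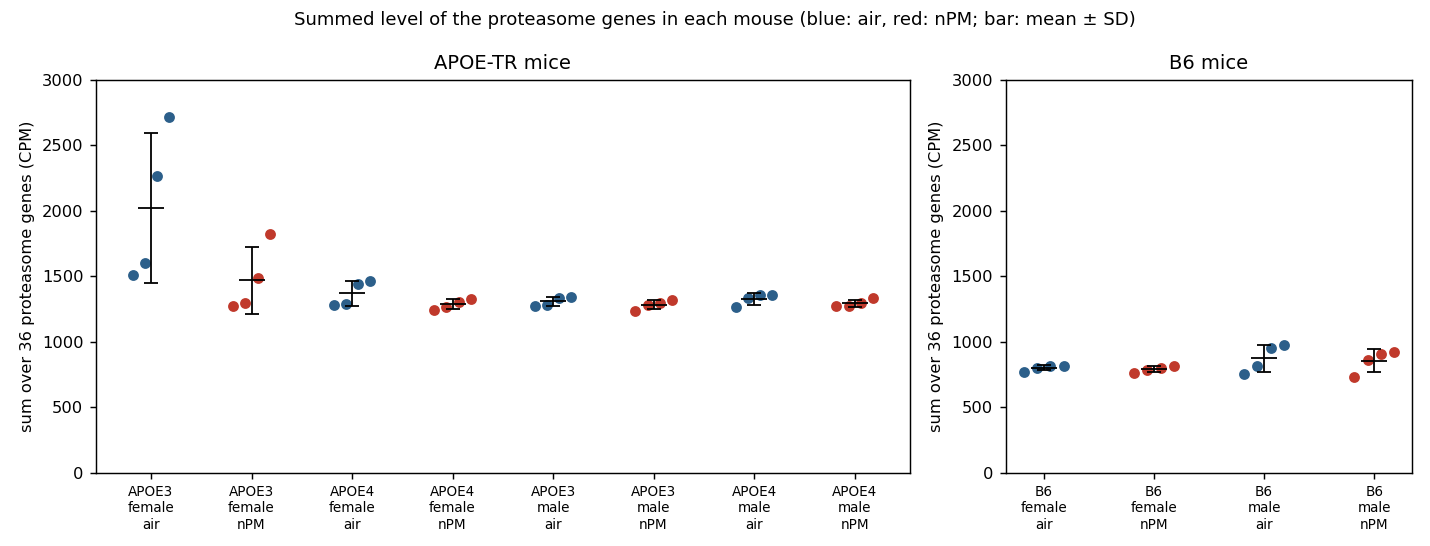
Sum of the 36 proteasome genes (CPM, vertical axis) in each of the 48 mice by group, with the mean and SD of each group of 4. The *APOE3* control females reach 2713 and 2267 CPM, whereas the *APOE*-TR males stay between 1235 and 1359 CPM.

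The first comparison asked how nPM changed the genes in all mice, adjusted for genotype and sex. Of the 32 genes tested, 27 were lower and 5 higher with nPM, with a median of −0.12 (log2) against −0.0062 over all 11087 genes. The study's limit for nPM responses, an unadjusted p under 0.005, was passed by 1 gene, *Psmd6*, which encodes a lid subunit, and by 1.49% of all genes (0.667% in the lower direction). *Psmd6* fell by 0.31 (SE 0.104, n = 48, limma p = 0.00402, adjusted p = 0.302, 19.5% lower). At p under 0.05 there were 6 lower and 0 higher members against 14.5% of all genes in either direction and 7.31% in the lower one. These were *Psmd6*, the alpha-ring genes *Psma1* (−0.20), *Psma6* (−0.23) and *Psma7* (−0.21), and the beta-ring genes *Psmb7* (−0.27) and *Psmb1* (−0.23). The higher member with the smallest p was the lid gene *Psmd3* (0.10, SE 0.079, limma adjusted p = 0.533). In limma 0 of the 11087 genes passed 5% FDR (false discovery rate), while 165 were at an unadjusted p under 0.005.

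By role, the median difference with nPM was −0.19 in the alpha ring, −0.14 in the beta ring, −0.061 in the ATPases and −0.098 in the other 19S genes. The *Psmd6* value was −0.15 in *APOE*-TR mice alone (n = 32, limma p = 0.0504). It was −0.59 in B6 mice alone (n = 16, limma p = 0.0246). Without the 4 libraries with steep slopes it was −0.27 (n = 44, limma p = 0.0128), and *Psmd6* no longer passed the limit, while the median over members was −0.056. Leaving out 1 mouse at a time, *Psmd6* passed the limit in 30 of 48 fits (limma p from 0.00204 to 0.00752). With the length slope as a covariate, described further on, the median was −0.055 and 0 members were at p under 0.005 (164 of 11087 genes). Beside such a property of the libraries, a lower level in whole cortex can come from fewer cells of a type or from less RNA per cell. These cannot be told apart.

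In B6 females members differed in both directions. *Psmb7*, the trypsin-like subunit, measured 23.9, 25.0, 26.8 and 21.9 CPM in filtered air and 14, 8.48, 14.8 and 18.8 CPM with nPM. All nPM females lay below all controls. The difference was −0.78 (SE 0.246, limma p = 0.00717, adjusted p = 0.388, exact permutation p = 0.0286, the smallest that 70 labelings of 4 against 4 allow). The pseudogene *Psmb7-ps2* was 13.5 to 15.4 CPM in the controls and 12.5, 0.0693, 9.82 and 13.5 CPM with nPM, mouse 51 being lowest for both. *Psmb5* (9.07, 9.95, 5.00 and 10.7 against 6.90, 7.62, 9.39 and 4.58 CPM) overlapped between exposures.

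*Psmd3* went the other way in B6 females. Controls measured 30.6, 29.4, 20.2 and 42.8 CPM and nPM mice 37.2, 54.9, 48 and 44.7 CPM, so that 1 control lay among the nPM values. The *Psmd3* difference was 0.66 (SE 0.223, limma p = 0.0108, adjusted p = 0.391, exact permutation p = 0.0571). The ubiquitin receptor gene *Psmd4* (0.67), the lid gene *Psmd12* (0.59) and the ATPase genes *Psmc3* (0.60) and *Psmc5* (0.51) were also higher at p under 0.05. In all 5 members were higher and 1, *Psmb7*, lower at that level, against 10.4% of all genes. The groups were separate for *Psmb7* and *Psma1*, both lower, against 3.23% of all genes in that direction. The median over the 33 genes was −0.18 and became −0.055 without nPM mouse 51. At p under 0.005 there were 0 members in limma (1.19% of all genes).

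In B6 males 0 of 33 members reached p under 0.05 in limma (4.35% of all genes), and the median was −0.049, or −0.014 without the control 0. Leaving out 1 mouse at a time, it ran from −0.10 without control 6 to 0.044, with the sign reversed, without nPM mouse 16. The smallest p belonged to the ATPase genes *Psmc6* among lower (−0.61, SE 0.342, limma p = 0.0966, exact permutation p = 0.20) and *Psmc1* among higher members (0.45, SE 0.361, limma p = 0.231, exact permutation p = 0.257). *Psmd9*, the chaperone gene, averaged 12 ± 1.18 CPM in filtered air and 9.81 ± 0.139 CPM after nPM. *Psmd12* averaged 24.4 ± 2.75 and 20.6 ± 1.74 CPM. After rescaling of the libraries the exposures did not overlap for either gene (1.09% of all genes in that direction). In CPM *Psmd12* did overlap, at 22.9 in nPM mouse 11 and 22.8 in control 3.

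In *APOE3* females the median difference with nPM was −0.38, with 33 of 36 members lower. Without the 3 libraries with steep slopes it was −0.22, and with the slope as a covariate, described further on, 0.023. *Psmb6*, the caspase-like subunit, measured 58.7, 116, 60.1 and 87.0 CPM in mice 52, 61, 63 and F6 in filtered air, and 64.2, 39.2, 40.5 and 49.6 CPM in mice 55, 59, 67 and 70 with nPM. The groups overlapped through nPM mouse 55, and the controls 61 and F6 were highest. The *Psmb6* difference was −0.64 (SE 0.226, limma p = 0.0212, adjusted p = 0.230, exact permutation p = 0.0857).

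*Psmb5*, the chymotrypsin-like subunit, was 60.4, 124, 66.9 and 96.9 CPM in filtered air and 69.99, 48.6, 46.5 and 57.8 CPM with nPM (−0.53, SE 0.216, limma p = 0.0366, exact permutation p = 0.114). *Psmb7* was 51.7, 106, 54.3 and 83.3 against 64.8, 41.8, 42.3 and 50.7 CPM (−0.46, SE 0.228, limma p = 0.0772, exact permutation p = 0.114). In all 3 catalytic genes the same controls were highest and the same nPM mouse was inside the control range. At p under 0.05 there were 6 lower members (*Psma2*, *Psma7*, *Psmb4*, *Psmb5*, *Psmb6* and *Psmd10*) and 0 higher, against 21% of all genes in either direction and 10.1% in the lower one. No member had separate groups (3.48% of all genes higher and 3.34% lower), and the smallest exact permutation p was 0.0571. The higher member with the smallest p was *Psmd11*, at 10.3, 8.60, 9.86 and 7.44 CPM in filtered air and 9.77, 11.5, 12.2 and 10.3 CPM with nPM (0.33, SE 0.155, limma p = 0.0666, exact permutation p = 0.114). The count of 6 became 0 without control 61 and 24 without control 52, and the median moved between −0.25 and −0.50. The shares of all genes in those fits are not given here.

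**Figure D2:**
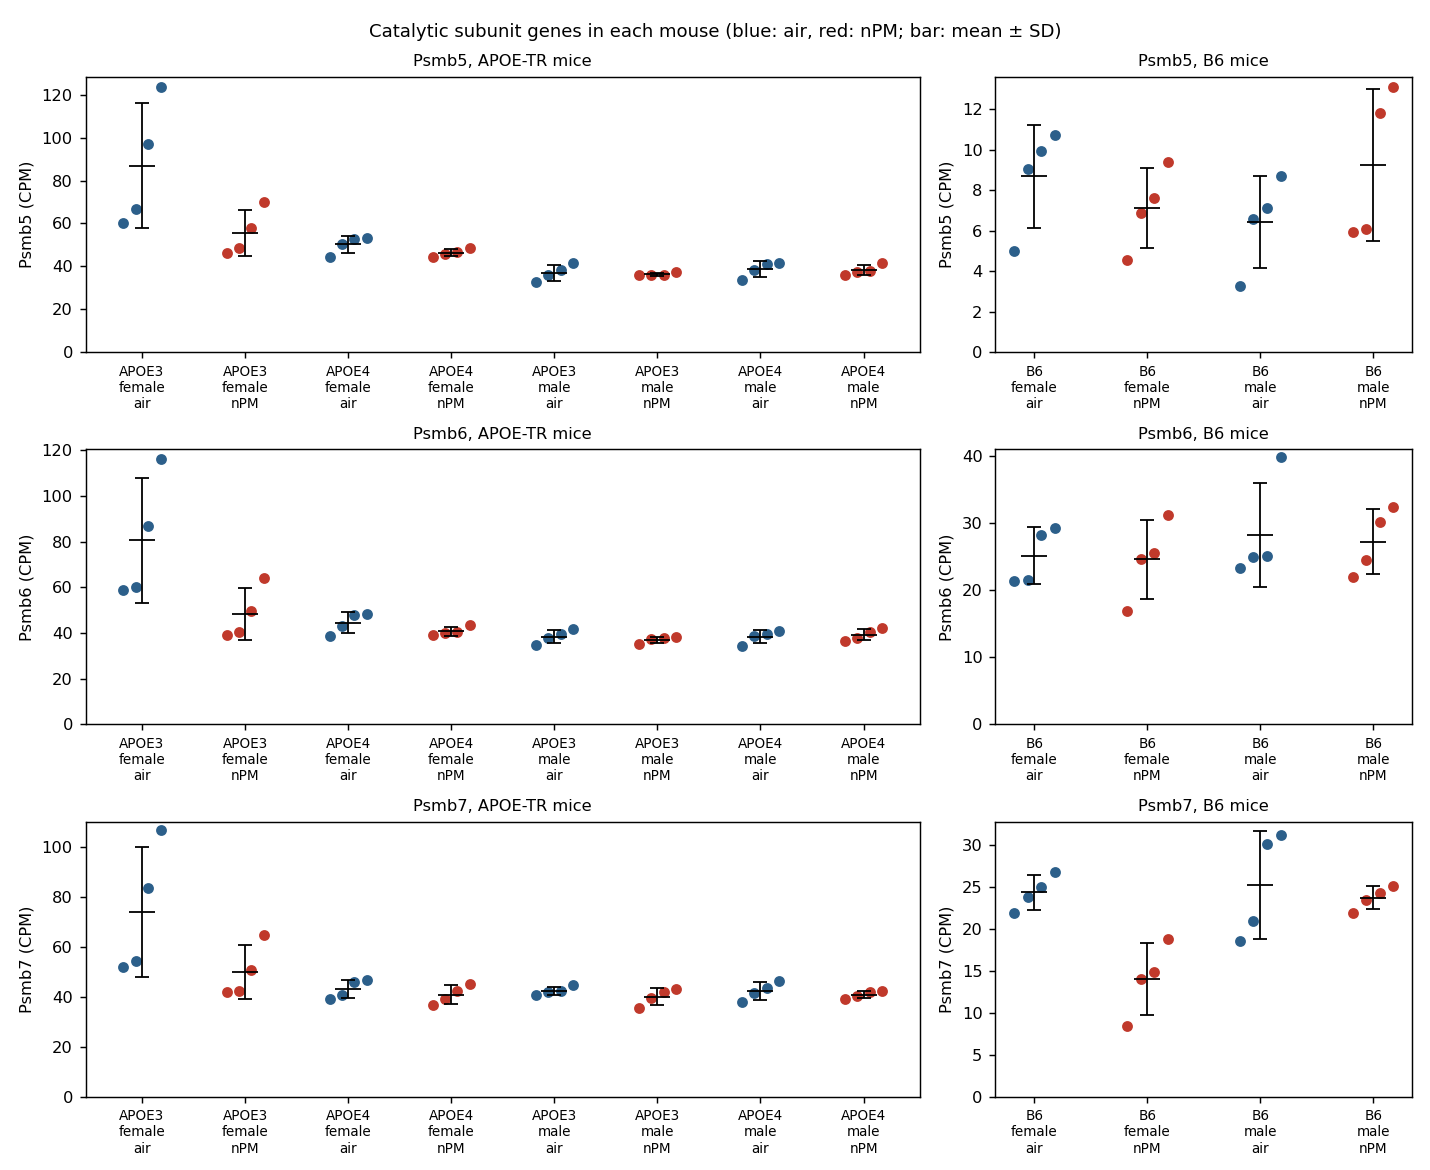
Levels of *Psmb5*, *Psmb6* and *Psmb7* (CPM, vertical axes, with a scale of their own for B6 mice) in each mouse by group, with the mean and SD of 4 mice (blue air, red nPM). In the *APOE*-TR panels the *APOE3* control females 61 and F6 lie highest (124 and 96.9 CPM for *Psmb5*) and the males lie low and close together.

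The remaining *APOE*-TR pairs showed smaller differences with nPM. In *APOE4* females 32 of 36 members were lower with a median of −0.084, which became −0.041 without control 21. With the slope as a covariate it was 0.014, with 20 members higher and 16 lower. *Psmb4*, a structural beta-ring subunit, was 50.1, 49.3, 41.8 and 42.2 CPM in filtered air and 39.3, 37.2, 39.5 and 39.4 CPM with nPM, with no overlap. That difference was −0.22 (SE 0.0682, limma p = 0.00782, adjusted p = 0.754, exact permutation p = 0.0286), and *Psmb4* was the 1 member at p under 0.05 (5.56% of all genes). *Psmd4* also had separate groups, 47.6 ± 2.54 against 43.9 ± 1.09 CPM (1.82% of all genes lower without overlap). The catalytic genes *Psmb5* (−0.10, SE 0.062), *Psmb6* (−0.11, SE 0.073) and *Psmb7* (−0.07, SE 0.0784) were within the spread of the mice, with 95% intervals from −0.27 to 0.11 over the 3. The higher member with the smallest p was *Psmd10* (0.07, limma p = 0.468, exact permutation p = 0.429).

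In *APOE3* males the median was −0.019 and in *APOE4* males −0.041, with 0 of 36 members at p under 0.05 in limma in either (2.24% and 4.19% of all genes). *Psmd9* was separate in *APOE3* males, 12.4 ± 0.710 CPM with nPM and 11.4 ± 0.159 CPM without (0.12, SE 0.0682, limma p = 0.107, exact permutation p = 0.0286; 0.817% of all genes higher without overlap). In *APOE4* males the member with the smallest p was *Psmd12* (−0.11, SE 0.0493, limma p = 0.0555, exact permutation p = 0.0571). *Psmb5* was between 32.6 and 41.7 CPM in the 16 *APOE*-TR males, *Psmb6* between 34.3 and 42 and *Psmb7* between 35.4 and 46.3, ranges narrower than that of the 4 *APOE3* control females alone. At the study's limit of p under 0.005 there were 0 members in limma in the *APOE3* females, *APOE3* males, *APOE4* females, *APOE4* males and B6 males, against 0.671%, 0.154%, 0.266%, 0.178% and 0.24% of all genes.

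The next comparison asked how the *APOE4* allele differed from *APOE3* in mice that breathed filtered air. In females 33 of 36 members were lower in *APOE4*, with a median of −0.48 against −0.0028 over all 16416 genes. This comparison uses the same 4 *APOE3* control females as the nPM comparison in that sex, so that values of the 2 comparisons are not independent. *Psmb5* was 52.9, 53.1, 44.5 and 50.5 CPM in the *APOE4* control females 7, 21, 26 and 38, all below the *APOE3* controls given above. *Psmb6* was 48.4, 47.9, 38.7 and 43.2 CPM and *Psmb7* 46.6, 45.8, 40.5 and 39.1 CPM, again with no overlap. The differences were −0.66 (SE 0.191) for *Psmb5*, −0.72 (SE 0.192) for *Psmb6* and −0.64 (SE 0.20) for *Psmb7*, each with limma adjusted p = 0.0766 and exact permutation p = 0.0286.

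The smallest p among lower members belonged to *Psmd8*, which encodes a lid subunit. It measured 61.5, 112, 62.3 and 90.8 CPM in *APOE3* and 49.2, 51.9, 46.0 and 44.7 CPM in *APOE4* control females. No *APOE4* value reached the *APOE3* range, and the difference was −0.65 (SE 0.169, limma p = 0.00427, adjusted p = 0.0766, exact permutation p = 0.0286, 36.1% lower). The chaperone gene *Psmd10* was 11.6, 24.6, 12.9 and 19.9 against 8.94, 9.84, 9.28 and 8.54 CPM (−0.75, SE 0.203), without overlap, whereas the other chaperone genes *Psmd5* (−0.29, SE 0.149) and *Psmd9* (−0.18, SE 0.153) overlapped.

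*Psmd11* was the 1 member higher at p under 0.05. Its *APOE4* values of 12.1, 10.7, 11.9 and 12.1 CPM lay above its *APOE3* values of 10.3, 8.60, 9.86 and 7.44 CPM (0.43, SE 0.144, limma p = 0.0161, adjusted p = 0.0793, exact permutation p = 0.0286). *Psmd11* was lowest in the controls F6 and 61, the mice in which the other members were highest. *Psmd3* (0.10, SE 0.0914) and the base scaffold gene *Psmd2* (0.04, SE 0.0848) also had differences above 0, within the spread.

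Altogether 22 members were lower and 1 higher at p under 0.05, against 41.1% of all genes in either direction, 20.3% lower and 20.7% higher. The groups were separate for 14 lower members and for *Psmd11*, against 14.5% of all genes in each direction. The 14 were *Psma2*, *Psma4*, *Psma5*, *Psma6*, *Psma7*, *Psmb2*, *Psmb4*, *Psmb5*, *Psmb6*, *Psmb7*, *Psmc2*, *Psmd6*, *Psmd8* and *Psmd10*. The lower members came from every part of the complex, with medians of −0.65 in the alpha ring, −0.63 in the beta ring, −0.30 in the ATPases and −0.29 in the other 19S genes. The study's rule for allele differences, 5% FDR, was passed by 0 members and by 38 genes (0.231%) in limma, the smallest adjusted p of a member being 0.0766. On the reads recovered from the CPM, edgeR's quasi-likelihood test called 33 genes and 0 members, and DESeq2 called 4155 genes and 18 members. Limma called 26 members without control 52, and 29 when the spread was estimated over all 8 *APOE*-TR groups. The share of all genes called in those fits is not given here, so the counts are not a result about the members. The shared spread takes in groups as narrow as the *APOE4* nPM males. The SD of the members' mean log2 level was 0.023 there, against 0.33 in the *APOE3* control females.

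In control males 27 members were higher and 9 lower in *APOE4*, the median was 0.028, and 0 reached p under 0.05 in limma (5.81% of all genes). *Psmb6* averaged 38.4 ± 2.90 CPM in both alleles, and the *Psmb6* difference had a 95% interval from −0.16 to 0.16. Among mice that breathed nPM, *APOE4* females had 34 of 36 members lower with a median of −0.17 and 0 at p under 0.05 in limma (9.12% of all genes). The smallest p was that of *Psmb4* (−0.27, SE 0.126, limma p = 0.0558, exact permutation p = 0.0286). *Psmb4* alone had separate groups there, 48.4 ± 10.7 against 38.8 ± 1.11 CPM (2.96% of all genes lower without overlap). Without nPM mouse 55 of the *APOE3* group the median was −0.045 and *Psmb4* was −0.14, and with the slope as a covariate the median was 0.068. In nPM males the median was 0.021 and *Psmd4* was higher (0.09, SE 0.0404, limma p = 0.0418, adjusted p = 0.487, exact permutation p = 0.0286; 9.89% of all genes at p under 0.05). *Psmd10* was also separate there, 7.58 ± 0.360 in *APOE4* against 8.03 ± 0.212 CPM in *APOE3* (exact permutation p = 0.0286), and 2.89% of all genes were separate in the higher and 2.87% in the lower direction. Of the members 0 passed 5% FDR in limma in control males, nPM females or nPM males, against 0.439%, 0.145% and 0.498% of all genes.

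Over all 32 *APOE*-TR mice, adjusted for sex and exposure, the median difference of *APOE4* from *APOE3* was −0.16. 0 members passed 5% FDR in limma, against 948 genes (5.94%), and 22 lower and 1 higher member, *Psmd11* (0.12, limma adjusted p = 0.113), were at p under 0.05, against 38.5% of all genes. The smallest p was that of *Psmd8* (−0.22, SE 0.074, n = 32, limma p = 0.00617, adjusted p = 0.0638). Without the 3 *APOE*-TR libraries with steep slopes the median was −0.036 and 1 member was at p under 0.05, and with the slope as a covariate it was −0.0026.

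**Figure D3:**
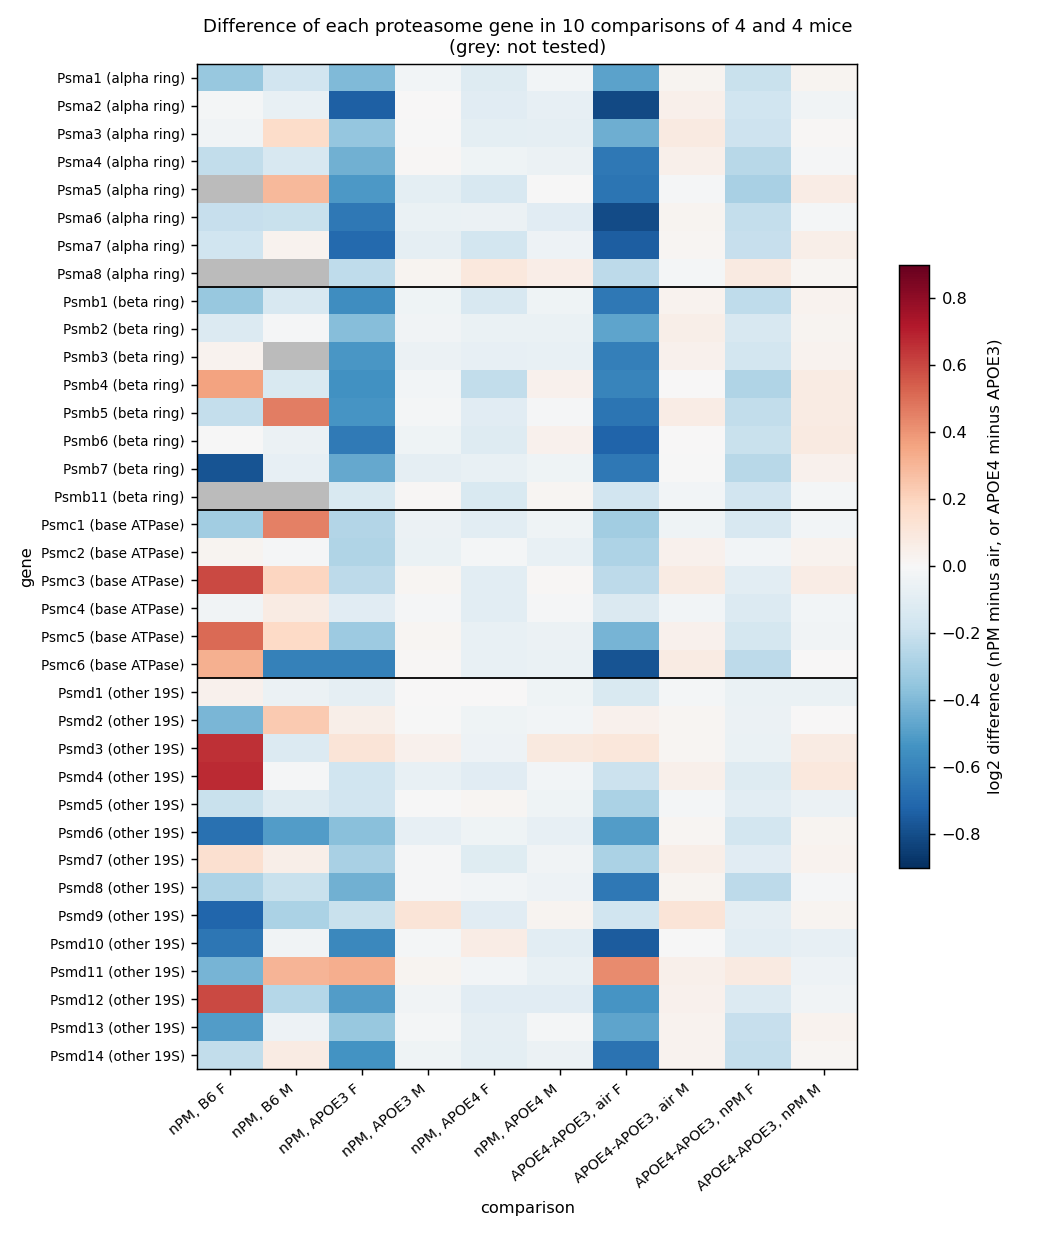
Log2 difference of each proteasome gene (rows, grouped by role) in the nPM and allele comparisons (columns), on a colour scale from lower to higher, with genes that were not tested left grey. The columns for *APOE3* females with nPM (median −0.38) and for *APOE4* against *APOE3* control females (median −0.48) are mostly lower, and the male columns lie near 0.

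The level of the members moved with a property of the whole library. In each mouse the log2 level of every gene, relative to the other mice of its table, was regressed on log2 exon length, and a negative slope means that short transcripts stood relatively high. The slopes were −0.11, −0.53, −0.14 and −0.38 in the *APOE3* female controls 52, 61, 63 and F6. They ran from −0.21 to 0.15 in the other 28 *APOE*-TR mice, with the −0.21 in nPM female 55. The same 4 controls had 88260 to 191953 CPM in the 13 mitochondrially encoded mRNAs, against 48268 to 110182 CPM in the other 28 mice. The sum of 80 ribosomal protein genes, which have short transcripts too, was 4820 to 12047 CPM against 2710 to 6381 CPM. Mouse 55 held the upper end of both other ranges, and without it they ended at 76101 and 4616 CPM. The B6 table lists none of the 13 mitochondrial genes.

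Across the 32 *APOE*-TR mice the mean deviation of the 36 genes was related to that slope with Pearson's r = −0.955 and Spearman's rho = −0.699 (permutation p = 1e-05, adjusted 2.5e-05 over the 10 correlations tested, the smallest that the resamples can give for r). Without the mice 61 and F6, farthest from the median slope, r was −0.861 (n = 30), and within groups it was −0.957. In the 16 females r was −0.989 and rho −0.876. In the 16 males r was −0.558 (permutation p = 0.0246, adjusted 0.0273) and rho −0.432 (permutation p = 0.0969). Without the *APOE3* control females (n = 28) r was −0.823 and rho −0.552. In the 16 B6 mice r was −0.777 and rho −0.653 (permutation p = 0.00016 and 0.00765), and within groups r was −0.832. Leaving out the 2 mice farthest from the median slope gave r = −0.967 in females, −0.499 in males, −0.627 without the *APOE3* control females and −0.688 in B6 mice. Both measures come from the same libraries, and short genes enter both.

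**Figure D4:**
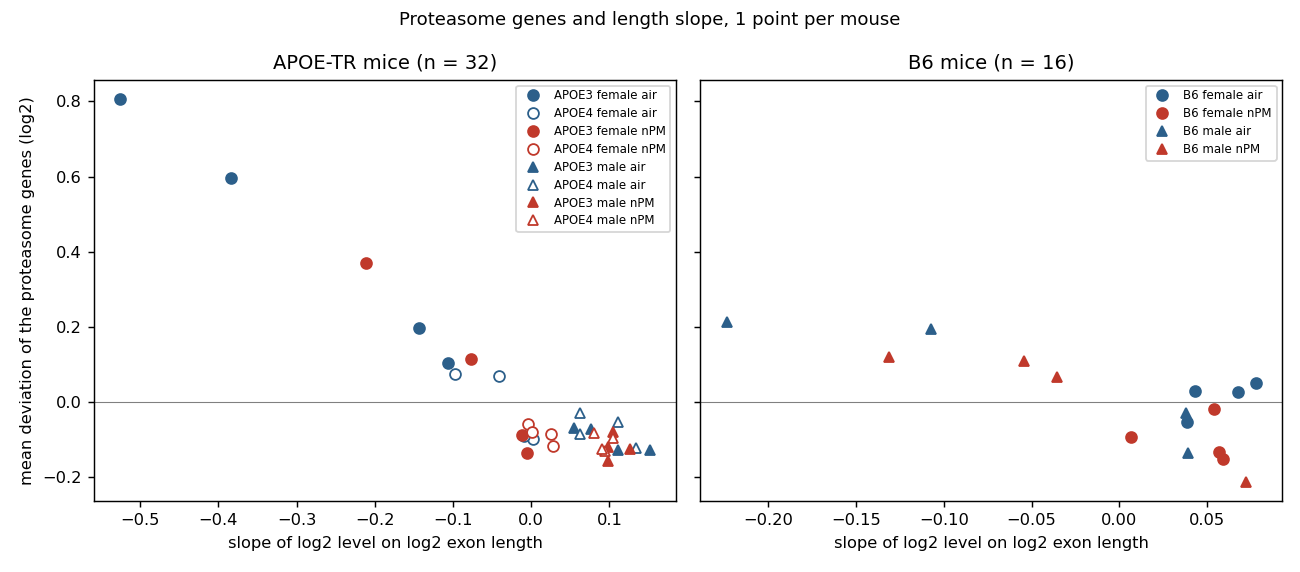
Mean log2 deviation of the proteasome genes (vertical axis) against the slope of log2 level on log2 exon length (horizontal axis), one point per mouse, for *APOE*-TR and B6 mice. The *APOE3* control females 61 and F6, with slopes of −0.53 and −0.38, lie at the upper left of the *APOE*-TR points.

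Members with shorter transcripts had the larger differences in the allele comparisons of females and with nPM in *APOE3* females. The relation was weaker with nPM in *APOE4* females (Spearman's rho over members 0.16) and in all mice (0.26). In *APOE4* against *APOE3* control females the 18 members with shorter transcripts had a median of −0.63 and the 18 with longer ones −0.26 (Spearman's rho over members 0.46, a description). With nPM in *APOE3* females these medians were −0.49 and −0.23 (rho 0.48). When the slope of each mouse entered the fit as a covariate, the median of *APOE4* against *APOE3* control females became −0.032. At p under 0.05 there were 2 lower members (*Psmd8*, −0.19, limma adjusted p = 0.323, and *Psmb6*, −0.21, limma adjusted p = 0.397) and 1 higher (the ATPase gene *Psmc4*, 0.21, limma adjusted p = 0.348), against 11.8% of all genes in either direction. The covariate left *Psmb5* at −0.14, *Psmb7* at −0.096 and *Psmd11* at 0.15. In *APOE3* females with nPM the median changed sign to 0.023, with 20 members higher and 16 lower. The median in B6 females was −0.17. Slopes ran only from 0.0068 to 0.078 in those mice, so the covariate could change little there. Leaving the steep controls 61 and F6 out instead left 2 *APOE3* mice against 4 *APOE4* mice. The allele median in control females was then −0.16, with 12 members at p under 0.05. The share of all genes at that level in this fit is not given, so the count is not a result about the members. *Psmd8* was −0.34, at an unadjusted limma p under 0.005. The slope and the group differ together in these females, so that in this fit an allele difference of short transcripts and a property of the libraries cannot be told apart.

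**Figure D5:**
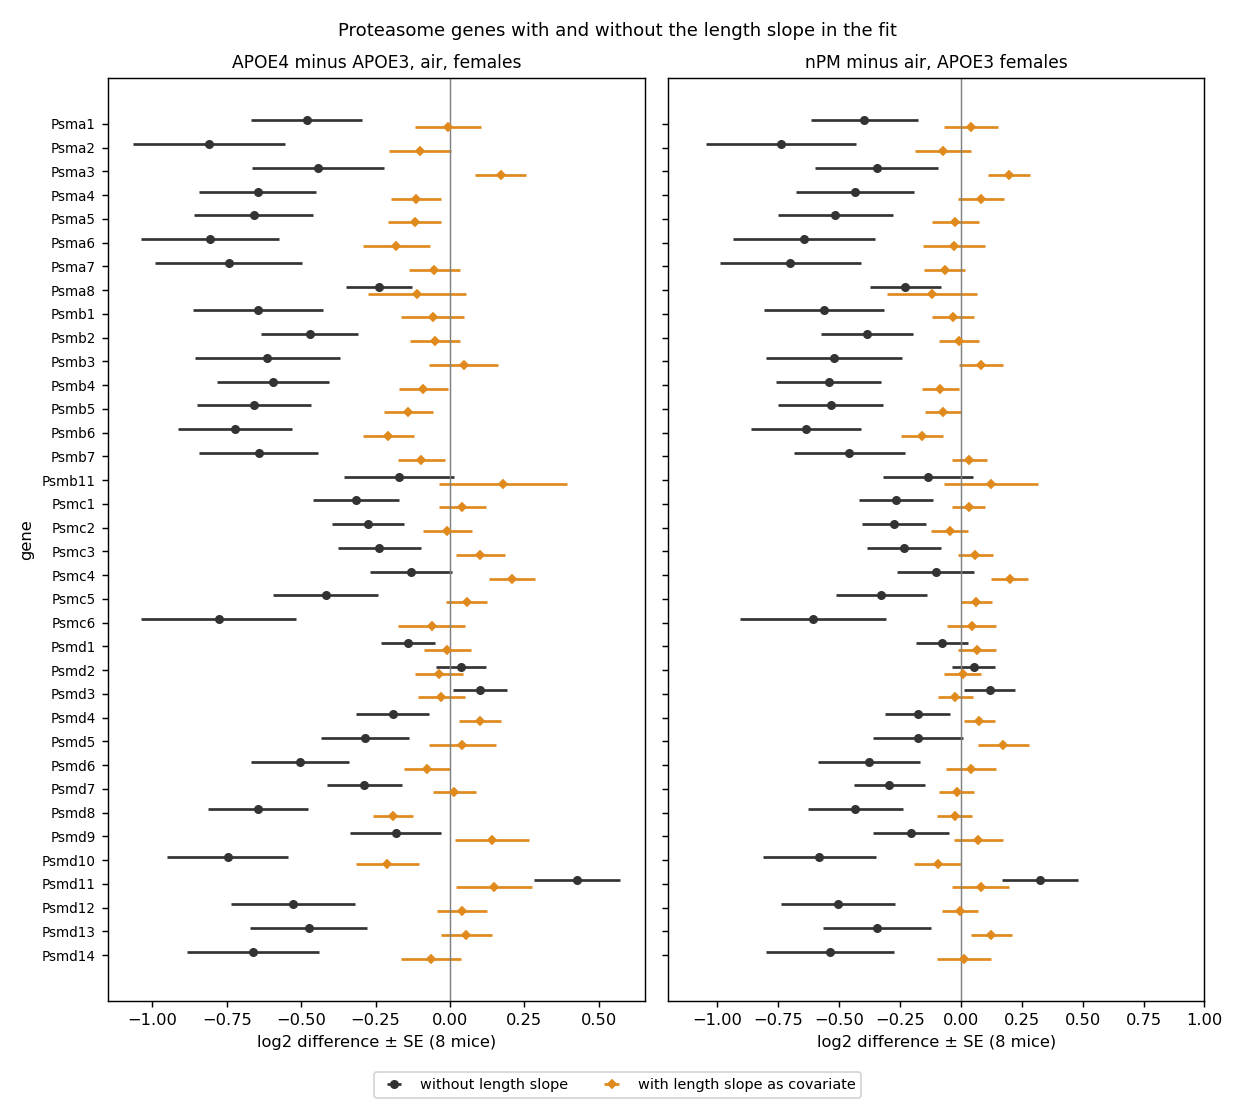
Log2 difference ± SE (horizontal axis) of each of the 36 proteasome genes (rows) without and with the length slope as a covariate, for *APOE4* minus *APOE3* control females (left) and nPM minus air in *APOE3* females (right), 8 mice each. With the covariate the genes gather around 0, the medians moving from −0.48 to −0.032 and from −0.38 to 0.023.

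In *APOE*-TR mice the members varied together from mouse to mouse. After centring on group means, the median correlation over 561 pairs of 34 members was 0.866 in the 32 *APOE*-TR mice, with 85.4% of pairs positive. It was 0.424 in the 24 mice that remain without *APOE3* females, with 88.8% of pairs positive. In the 16 B6 mice it was 0.104 over 496 pairs of 32 members, with 59.9% positive. No such correlation is given for other short genes, so it is not shown to be particular to the members. These are descriptions, since the pairs share libraries.

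Whether the nPM response differed between groups was tested as an interaction. Between sexes, over all mice, 0 of 32 members reached p under 0.005 in limma (1.98% of all genes) and 5 reached p under 0.05, all more negative in females (13.8% of all genes), *Psmb7* having the smallest p (−0.39, n = 48, limma p = 0.0113). The median between sexes, −0.18, was −0.073 with the slope as a covariate and −0.13 without the steep libraries. Between alleles in both sexes the median was 0.16 and 3 of 36 members were at p under 0.05 and 0 at p under 0.005 in limma (10.6% and 0.726% of all genes). That median was 0.093 without control 61, −0.022 with the slope as a covariate and 0.051 without the steep libraries, and the count at p under 0.05 ran from 0 without control 61 to 15 without control 52. *Psmb6* had a difference of 0.30 (n = 32, limma p = 0.0359). Between alleles in females the median was 0.32, and 11 members had a more positive and 1 a more negative response in *APOE4* at p under 0.05 (29.4% of all genes). That count ran from 3 without control 61 to 27 without control 52, and the median was −0.0054 with the slope as a covariate and 0.13 without the steep libraries. *Psmd10*, whose chaperone product is also called gankyrin, was the 1 member at p under 0.005 (0.65, SE 0.194, n = 32, limma p = 0.00223, adjusted p = 0.126; 1.68% of all genes in that direction). It measured 11.6, 24.6, 12.9 and 19.9 CPM in *APOE3* controls, 13.6, 8.5, 9.42 and 10.6 with nPM, 8.94, 9.84, 9.28 and 8.54 in *APOE4* controls and 9.79, 8.93, 10.7 and 8.77 with nPM. Only the *APOE3* controls 61 and F6, which have steep slopes, reached above 14 CPM. Without the libraries with steep slopes the *Psmd10* value was 0.40 (n = 29, limma p = 0.00292). Without control 61 it was 0.49 (n = 31, limma p = 0.00763), and with the length slope as a covariate 0.31 (n = 32, limma p = 0.00976). In that covariate fit *Psmc4* was the 1 member at p under 0.005, with a more negative response in *APOE4* (−0.22, n = 32, limma p = 0.00384), as were 220 of all 15971 genes in either direction. At p under 0.005 there were 11 members without control 52 and 8 without nPM mouse 55. Counts from fits without 1 mouse are given here without the share of all genes in the same fit, so they are not a result about the members. In males the median was −0.011, or −0.015 without the steep libraries, and 0 members reached p under 0.05 in limma (0.883% of all genes).

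Other genes of the pathway were read in the same comparisons, but not with the slope as a covariate or without the steep libraries. The values for control females include the steep *APOE3* controls 61 and F6. *Nfe2l1* was 294, 206, 300 and 247 CPM in *APOE3* and 334 to 354 CPM in *APOE4* control females (0.48, SE 0.153, limma adjusted p = 0.0773), lowest in 61 and F6, where most members were highest. Over all mice its nPM difference was 0.12 (n = 48, limma p = 0.0463). *Ddi2*, the protease that activates NFE2L1, differed by 0.84 (adjusted p = 0.218) in the allele comparison of control females. Of the 16 genes of the NFE2L1 axis, 6 were higher and 2 lower there at p under 0.05, beside 20.7% and 20.3% of all genes. Of 5 assembly chaperones 0 were higher and 3 lower, among them *Pomp*, which matures the core (−0.62, limma adjusted p = 0.0937). The immunoproteasome genes *Psmb10* (−0.63), *Psmb8* (−0.46) and *Psmb9* (−0.44) lay as low as the constitutive ones, with 1 of 3 at p under 0.05. *Psme4*, which encodes the activator PA200, went the other way (0.55, limma adjusted p = 0.0766), and the ubiquitin receptor gene *Adrm1* was at 0.05.

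Over all *APOE*-TR mice *Psme4* (0.21, limma adjusted p = 0.0314) and *Btrc*, a ubiquitin ligase receptor (0.33, limma adjusted p = 0.0137), rose in *APOE4* at 5% FDR. With nPM over all mice, at p under 0.005, *Mafg*, a partner of NFE2L1 and NRF2 at its element, rose by 0.28 (n = 48, limma p = 0.00274), and *Nfe2l2*, which encodes NRF2, fell by 0.28 (limma p = 0.00333). *Usp14*, the deubiquitinase that docks on the 19S base, fell by 0.19 (n = 48, limma p = 0.00271), each with limma adjusted p = 0.302. Elsewhere *Maff* was higher with nPM in *APOE3* males at p under 0.005 (0.50, limma adjusted p = 1.0). The nPM response differed between sexes for the ligase genes *Syvn1* (0.64, limma adjusted p = 0.215) and *Fbxw7* (−0.45, limma adjusted p = 0.225), and between alleles in females for *Nploc4*, a cofactor of the p97 unfoldase (−0.53, limma adjusted p = 0.126), each at p under 0.005.

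Some cell-type markers also differed in the female allele comparison, in which 20.7% of all genes were higher and 20.3% lower at p under 0.05, and their part in the member differences was not tested. At p under 0.05 in *APOE4* against *APOE3* control females, 3 of 7 neuronal markers were higher and 0 lower, and 2 of 7 markers each of astrocytes, microglia and oligodendrocytes were lower, with 1 oligodendrocyte marker higher. Markers of oligodendrocyte precursors and endothelial cells were listed too but are not counted here. The counts therefore do not show that higher markers were limited to the cell types named. Summed oligodendrocyte markers were 4880 to 7101 CPM in *APOE3* and 3841 to 5675 CPM in *APOE4* controls, microglial markers 336 to 479 and 244 to 525 CPM, and neuronal markers 4563 to 6674 and 4579 to 5197 CPM. No marker of striatum, choroid plexus or blood reached p under 0.05, although summed choroid plexus markers ran from 28.7 to 1493 and from 39.4 to 1180 CPM.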

How the data were processed

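Total RNA of the cerebral cortex of 48 mice, each a separate animal, was sequenced with a stranded mRNA kit. The authors aligned reads with TopHat2 2.0.8b to mm10 (GRCm38), keeping reads with a single mapping place, counted RefSeq genes in Partek Flow and deposited CPM, 1 table for B6 and 1 for *APOE*-TR mice. No value is 0. In the *APOE*-TR table, 95.3 to 96.3% of low values per mouse were whole reads (within 0.1 read), so edgeR and DESeq2 were run there as alternatives. The share was 75.5 to 89.1% in B6 mice, and reads were not recovered.

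Differences were tested with limma 3.58.1 (R 4.3.3) on log2(CPM + 0.5) after TMM rescaling in edgeR 4.0.16 (factors 0.967 to 1.091), over genes above the lowest value of every library in the fit, with Benjamini-Hochberg adjustment over all of them. The fit of all mice had sex and genotype as covariates. Exact two-sided permutation tests used all 70 labelings. The limits were those of the study, p under 0.005 for nPM and 5% FDR for the allele, with p under 0.05 as a description. DESeq2 was 1.42.0. The tests were checked on simulated data that held planted changes but no length slope between libraries, so the check does not bear on that slope. Exon lengths are those of GENCODE.

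The members and gene lists were chosen with earlier results of these data known. Genes named with values are the catalytic subunits, the member with the smallest p in each direction, the extremes of level per kb, members that are not constitutive subunits and pathway genes with a call, plus members listed to describe a count, chosen after their values were seen. The column of 1 *APOE3* control female (F6) gives its group, but its animal number matches no sample title. Alternatives were other pseudocounts, scalings, filters, tools and samples, the length slope as a covariate, and, added after seeing the data, omission of libraries with steep slopes.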

Additional observations from a re-analysis of the deposited data

Results flagged for a closer look

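Among 120 sets of 4 mice (10 quantities in 12 groups), 3 held a mouse far from the other 3 of its group, where chance flags about 1 in 20. *Psmb6* was 39.78 CPM in the B6 male control 0, against 23.2 to 25.0 CPM in the other 3. That mouse also has one of the 4 steep length slopes. *Psma6* was 39.44 CPM in the *APOE3* male control 63, against 36.4 to 36.9 CPM, and *Psmd10* was 7.042 CPM in the *APOE4* male nPM mouse 23, against 7.72 to 7.80 CPM. The nPM response of *Psmd10* differed between alleles in females by 0.65 (log2, n = 32, limma p = 0.00223, adjusted p = 0.126), with values for every mouse given above.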

How the results depend on the processing

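Of 320 values of the medians and counts of calls under alternatives other than omission of 1 mouse, 297 were a median that moved by less than 1 SD of the spread between replicates or a count within 1.5 times. Within that spread, the median for nPM in all mice went from −0.12 to −0.056 without steep libraries and −0.055 with the length slope as a covariate, that for the allele in all mice from −0.16 to −0.036 without steep libraries, that for nPM by sex from −0.18 to −0.073 with the covariate, and that for nPM in B6 males from −0.049 to −0.0088 with it. With the length slope as a covariate the median became 0.023 (nPM, *APOE3* females), 0.014 (nPM, *APOE4* females), 0.068 (allele, nPM females, where *Psmd11* became −0.037), −0.022 and −0.0054 (nPM by allele, both sexes and females), each with the sign reversed, and −0.032 and −0.0026 (allele, control females and all mice). Without libraries with steep slopes, an alternative chosen after seeing the data, it was −0.16 for the allele in control females and 0.13 for nPM by allele in females. The 1 call for nPM in all mice became 0 with no filter, with voom, with the length slope, in males alone (where *Psmd3* was −0.0064, reversed), in *APOE*-TR mice alone, in B6 mice alone and without steep libraries. Spread shared over the table gave 1 call for nPM in B6 females, 22 in *APOE3* females and 29 for the allele in control females. DESeq2 gave 1 for nPM in *APOE4* females, 18 for the allele in control females and 2 in all mice, and omission of steep libraries gave 1 for nPM in *APOE3* females. No share of all genes stands beside these counts here, so they are not a result about the members.

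Without 1 mouse at a time, calls ranged from 0 to 3 (nPM, all mice), 0 to 1 (nPM, B6 females; nPM, *APOE4* females; nPM by sex), 0 to 26 (allele, control females), 0 to 3 (allele, all mice) and 0 to 11 (nPM by allele, females), and medians from −0.19 to −0.055 (nPM, B6 females), −0.10 to 0.044 (nPM, B6 males) and −0.0081 to 0.027 (allele, nPM males, lowest without *APOE3* mouse 76). The shares of all genes called in those fits are not given. No paired analysis was possible because every mouse belongs to 1 group and the groups compared share fewer than 2 animal numbers. edgeR and DESeq2 were not run for B6 mice or for the fit of all mice, where whole reads were not recovered. With 4 mice a group, an exact permutation p cannot go below 0.0286 and the spread among the *APOE3* control females (572 CPM in the summed level) is large. B6 depth is less certain, and low B6 values such as *Psma5* are limited by it.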
